A study of Mus musculus with 14 samples.

Results

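The subunits of class I phosphoinositide 3-kinase (PI3K) were described in bulk RNA-seq of mouse aortic valve leaflets. The 9 genes were chosen by name and comprised the 5 regulatory subunits Pik3r1, Pik3r2, Pik3r3, Pik3r5 and Pik3r6 and the 4 catalytic subunits Pik3ca, Pik3cb, Pik3cd and Pik3cg. All 9 were among the 56941 genes of the deposited table and among the 19145 whose mean count reached 10. No threshold on a value defined the list, but the family was proposed with earlier results of these 14 libraries in view. Levels and fold changes of its members are therefore given as a description. Fits over all genes enter for the members as fold changes with their SE and as counts of calls. The counts are set beside the share of all genes called.

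Class I PI3K phosphorylates a lipid of the inner plasma membrane to PIP3, which recruits the kinase AKT. The class IA enzymes pair a catalytic p110 protein (p110α from Pik3ca, p110β from Pik3cb, p110δ from Pik3cd) with a regulatory protein (p85α from Pik3r1, p85β from Pik3r2, p55γ from Pik3r3) that holds it at activated receptor tyrosine kinases. The class IB enzyme p110γ, from Pik3cg, binds p101 (Pik3r5) or p84 (Pik3r6) and responds to G protein-coupled receptors. The α and β forms are found in most cells, whereas p110δ and p110γ are best known in leukocytes. In valves, growth factor signalling through this pathway is studied in interstitial cells, which make the matrix of the leaflet.

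All mice were wild type males of the strain C57BL/6J (C57BL/6 in the sample labels) that received a Western diet from 8 weeks of age. Ctrl mice (n = 4) were untreated, and AngII mice (n = 4) had angiotensin II infused at 1000 ng/kg/min by osmotic pump for 28 days. LY mice (n = 2) received LY272015, which blocks the serotonin receptor HTR2B, at 3 mg/kg intraperitoneally, and AngII+LY mice (n = 4) received both. The series text gives 4 mice per group and 2 injections per week, where the treatment label gives dosing every other day. It also places collection 48 hours after pump removal in the AngII and AngII+LY groups. The treatment labels of LY 2 and of AngII+LY 2, 3 and 4 carry compound numbers from LY272016 to LY272018, and these mice were grouped by their titles. In bulk leaflets, fewer cells of a type and less RNA per cell cannot be told apart.

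Each library held between 20990655 (AngII 4) and 73128220 (AngII 2) counts on genes. 2 AngII libraries stood apart from the others. Mitochondrial genes took 24.7% of the counts in AngII 3 and 25.5% in AngII 4, against 4.0 to 7.52% in Ctrl mice and 9.83 and 11.0% in the other AngII libraries. Genes whose longest transcript had a G+C content of 55% or more lay at a median log2 difference of -0.64 from the Ctrl mean in AngII 3 and -1.17 in AngII 4. In AngII 1 and AngII 2 this median was -0.19 and -0.27. AngII+LY 1 came next, with 20.2% mitochondrial counts and a median of -0.35. Values are therefore also given after each library was corrected for G+C content, and without both AngII 3 and AngII 4. Interstitial and fibroblast markers, with Dcn the most abundant, took 0.967 to 1.99% of the counts in Ctrl and 1.23 to 1.87% in AngII mice, and all 10 were detected in every group, as were all 8 endothelial markers.

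**Figure D1:**
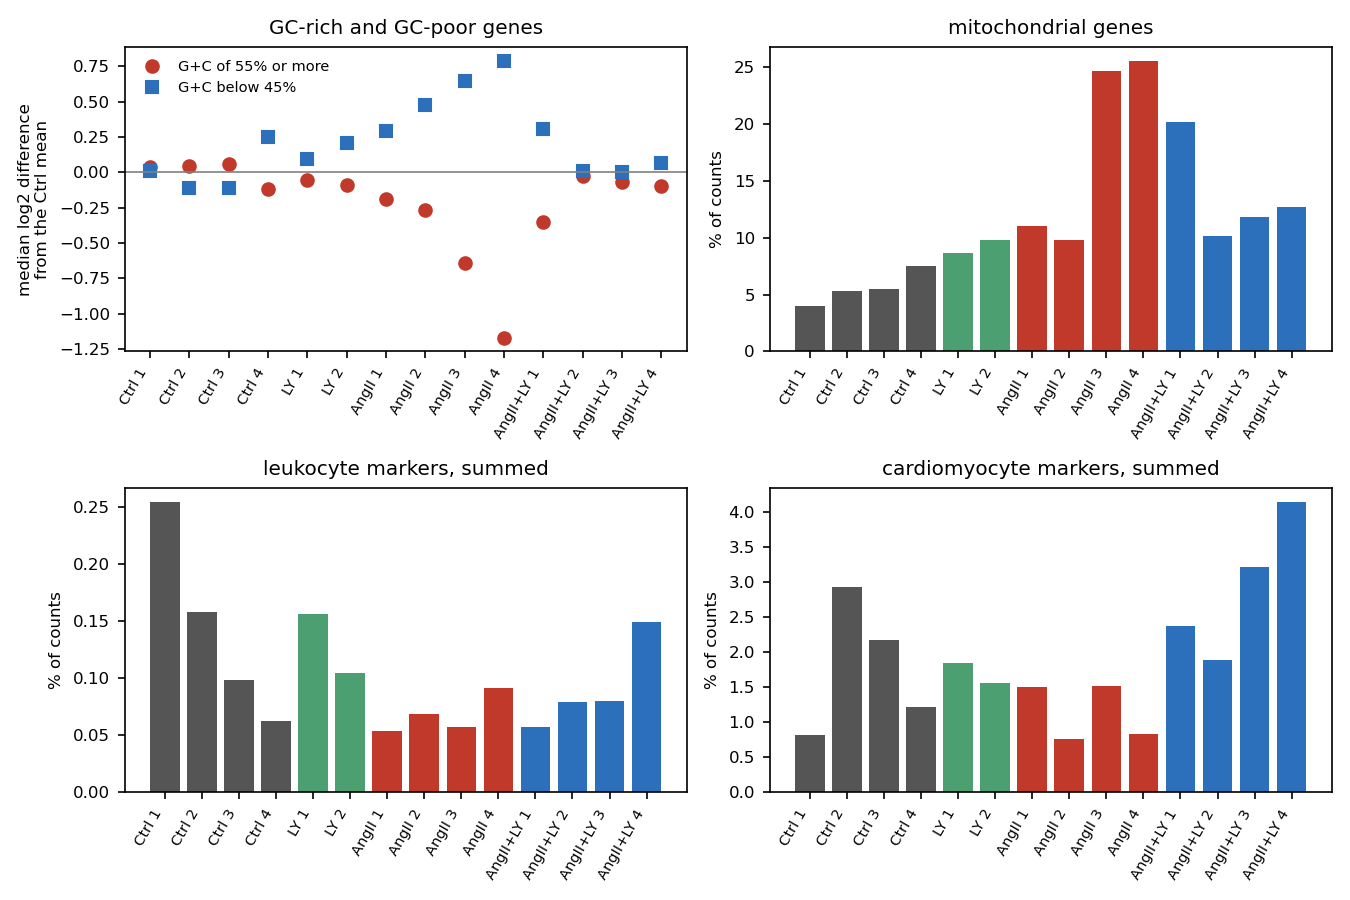
Properties of the 14 libraries: the median log2 difference from the Ctrl mean of GC-rich and GC-poor genes, and the percent of counts on mitochondrial genes and on summed leukocyte and cardiomyocyte markers (bars; grey Ctrl, green LY, red AngII, blue AngII+LY). AngII 3 and AngII 4 had the lowest medians of GC-rich genes (-0.64 and -1.17) and the highest mitochondrial shares (24.7 and 25.5%).

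The 3 class IA regulatory genes are close relatives with different base composition. The longest transcript of Pik3r2 has a G+C content of 60.9%, above the 95th percentile of 58.8% over 19043 genes, against 44.9% for Pik3r1 and 44.5% for Pik3r3 (median of all genes 49.0%). Coding windows of 72 bases, in frame and inside a single exon, are shown because they carry this difference in base composition. Capitals mark G and C.
Pik3r2: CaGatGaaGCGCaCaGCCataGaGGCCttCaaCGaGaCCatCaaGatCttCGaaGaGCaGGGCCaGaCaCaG
Pik3r1: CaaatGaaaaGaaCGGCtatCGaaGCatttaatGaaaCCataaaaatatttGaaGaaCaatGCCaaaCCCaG
Pik3r3: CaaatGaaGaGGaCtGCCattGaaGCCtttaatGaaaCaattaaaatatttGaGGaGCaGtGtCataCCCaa
On GRCm39 they lie at chr8:71222614-71222685 (minus strand, exon 11), chr13:101824074-101824145 (minus strand, exon 12) and chr4:116143259-116143330 (plus strand, exon 6). At the first and the second codon positions, Pik3r1 and Pik3r3 each share 46 of 48 bases with Pik3r2. At the third position G or C stands in 20 of 24 codons of Pik3r2, 7 of Pik3r1 and 9 of Pik3r3. The windows were picked for shared bases at the first and the second positions. Over the whole coding sequence, G or C takes 72.0% of the third positions in Pik3r2, 52.2% in Pik3r1 and 52.5% in Pik3r3.

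Levels of different subunits were compared as TMM-normalized counts per kilobase of exon. In Ctrl mice the regulatory level was highest for Pik3r2 at 453 ± 60.1 (SD, n = 4) and next for Pik3r3 at 306 ± 121, and their ranges overlapped. Pik3r6 (129 ± 20.7) and Pik3r1 (125 ± 15.6) lay below both and overlapped each other, and Pik3r5 was lowest at 38.7 ± 16.1, below every Pik3r1 value. This order depends on the length used. Per kilobase of coding sequence Pik3r1 was at 620 ± 77.0 and Pik3r6 at 223 ± 35.7, without overlap of their shares, and per kilobase of the longest transcript the shares of Pik3r2 and Pik3r3 no longer overlapped. Among catalytic subunits Pik3ca stood highest at 326 ± 20.9 per kilobase, clear of Pik3cb at 88.9 ± 24.1. Pik3cb overlapped Pik3cd at 64.0 ± 19.7, and Pik3cg was lowest at 25.9 ± 10.4. Pik3ca made up 64.9 ± 5.75% (SD, n = 4) of the catalytic sum in Ctrl valves, and it was the highest catalytic subunit in all 14 libraries.

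**Figure D2:**
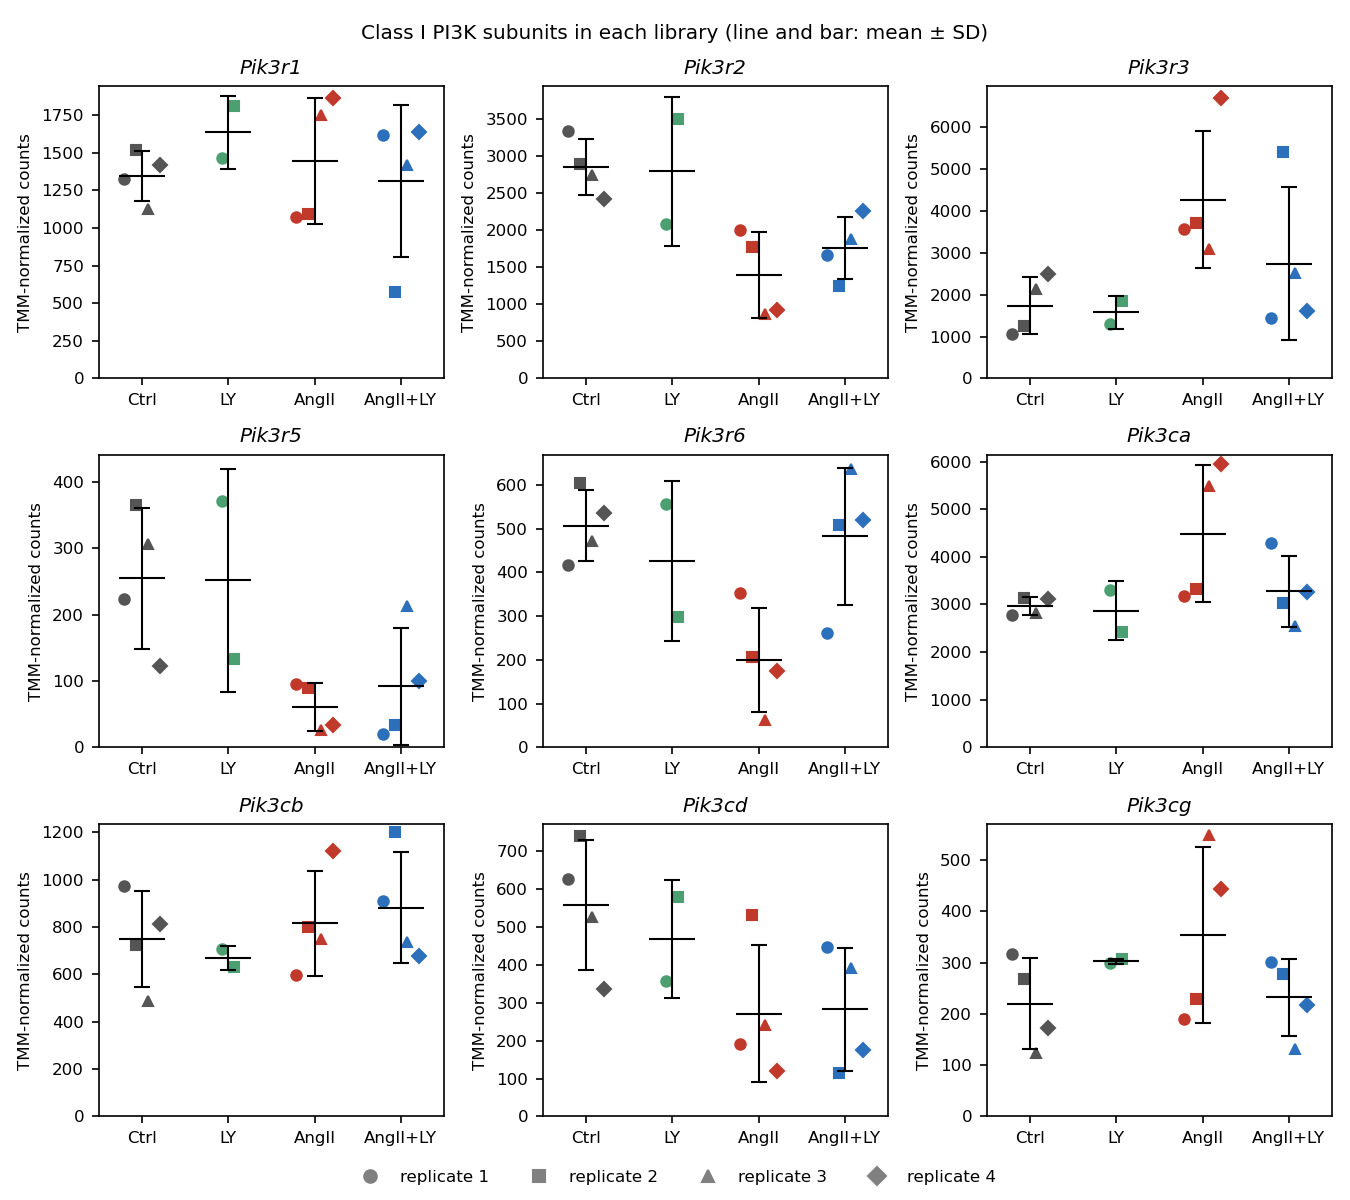
TMM-normalized counts of the 9 subunits in each library, by group (points, shaped by replicate; horizontal line and bar, mean ± SD). Pik3r2, Pik3r5 and Pik3r6 were lower and Pik3r3 and Pik3ca higher in all 4 AngII mice than in all 4 Ctrl mice.

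The first comparison addressed the effect of the AngII infusion. In the regulatory set, all AngII mice exceeded all Ctrl mice for Pik3r3 and lay below them for Pik3r2, Pik3r5 and Pik3r6, while Pik3r1 overlapped. Of the catalytic subunits only Pik3ca separated the groups, on the higher side. By edgeR's quasi-likelihood test 0 of the 9 passed a Benjamini-Hochberg adjusted p of 0.05 with an absolute log2 fold change above 0.5, as did 0.0% of all 19145 genes. At an unadjusted p under 0.05, 2 subunits were higher (Pik3r3 and Pik3ca), beside 13.4% of all genes, and 3 were lower (Pik3r2, Pik3r5 and Pik3r6), beside 11.7%. DESeq2's Wald test at the same cut-off called Pik3r3 higher and these 3 lower, beside 9.15 and 4.69% of all genes. Groups did not overlap, with AngII higher, in 2 subunits and 7.46% of genes, and with AngII lower in 3 subunits and 7.56% of genes. After the G+C correction 1 subunit was higher (Pik3r3) and 1 lower (Pik3r5) at the unadjusted threshold, beside 12.8 and 3.25% of genes. These tests were against 0, while the correction put the median log2 fold change of all genes at 0.15. Without AngII 1, edgeR called Pik3r2 and Pik3r6 (and 1725 genes in all). Without AngII 3 and AngII 4, Pik3r3 was higher, beside 4.93% of genes, and Pik3r2 lower, beside 3.65%, at the unadjusted threshold. With the G+C correction and without these 2 libraries 0 subunits passed it (971 genes in all), with Pik3r3 at 0.94 and Pik3r2 at -0.28. Since the family was selected with such results known, nothing is read from these counts.

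Pik3r3 (ENSMUSG00000028698, chromosome 4 from 116078393 to 116160255, plus strand) encodes p55γ, the short regulatory subunit. In Ctrl mice it had 1066, 1254, 2128 and 2499 normalized counts, and in AngII mice 3569, 3720.2, 3077 and 6690.5. The lowest AngII mouse lay above the highest Ctrl mouse. The fitted log2 fold change was 1.29 (SE 0.42), or 2.45-fold. It was 1.15 (SE 0.43) after the G+C correction and 1.07 without AngII 3 and AngII 4. Leaving out single libraries gave values from 0.99 to 1.52. The LY mice had 1295 and 1856 normalized counts, inside the Ctrl range. AngII+LY mice had 1435, 5398, 2512 and 1619, so that AngII+LY 2 stood in the AngII range and the others at Ctrl levels or just above.

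Pik3r2 (ENSMUSG00000031834, chromosome 8 from 71220774 to 71229412, minus strand) encodes p85β. Its normalized counts were 3334, 2896, 2749 and 2423 in Ctrl and 1999, 1774, 875 and 923 in AngII mice. All AngII mice lay below all Ctrl mice, and AngII 3 and AngII 4 were the lowest of all 14 libraries. The log2 fold change was -1.03 (SE 0.29), but only -0.39 (SE 0.22) after the G+C correction and -0.59 without AngII 3 and AngII 4. LY mice had 2083 and 3504, and AngII+LY mice 1668, 1250.0, 1876 and 2256 normalized counts. No AngII+LY mouse reached the Ctrl range, and the 2 LY mice spanned it. The antisense lncRNA 2010320M18Rik overlaps Pik3r2 and held 12136 counts over all libraries against 31435 of Pik3r2. The strand setting of the counting is not given in the sources used here, so their reads may be shared.

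Pik3r1 (ENSMUSG00000041417, chromosome 13 from 101817071 to 101904725, minus strand) encodes p85α and shorter proteins that gene counts cannot separate. It had 1346 ± 167 normalized counts in Ctrl and 1445 ± 421 in AngII mice (SD, n = 4 each), and the groups overlapped. AngII 1 and AngII 2 were at 1071 and 1095, AngII 3 and AngII 4 at 1752 and 1863. The log2 fold change was 0.10 (SE 0.30), -0.01 (SE 0.29) after the G+C correction and -0.31 without AngII 3 and AngII 4. The lowest value of all libraries was 572, in AngII+LY 2, the library with the second highest Pik3r3.

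The class IB regulatory genes Pik3r5 and Pik3r6 are neighbours on chromosome 11, from 68322939 to 68388675 and from 68393845 to 68443524 on the plus strand, with no other gene in the 5169 bases between them. Both were lower in AngII mice. Pik3r5 (ENSMUSG00000020901) had 223, 366, 307 and 123 normalized counts in Ctrl and 95.1, 89.9, 26.4 and 33.1 in AngII mice. Pik3r6 (ENSMUSG00000046207) had 416, 604, 471 and 535 in Ctrl and 354, 207, 63.7 and 175 in AngII mice. Neither gene overlapped between the groups. The log2 fold changes were -2.04 (SE 0.72) for Pik3r5 and -1.34 (SE 0.44) for Pik3r6. After the G+C correction they were -1.53 (SE 0.66) and -0.76 (SE 0.40), and without AngII 3 and AngII 4 they were -1.46 and -0.85. Pik3r5 rests on few reads, with 10 raw counts in AngII 4.
In AngII+LY mice Pik3r6 had 262, 509, 636 and 520.1 normalized counts, with 3 of the 4 mice in or above the Ctrl range, and Pik3r5 had 20.6, 33.1, 213 and 101. The ratio of Pik3r6 to Pik3r5 per kilobase, in which their similar G+C contents (55.8 and 55.1%) largely cancel, was 21.4, 25.8, 5.01 and 8.68 in AngII+LY mice. It was 3.14, 2.77, 2.58 and 7.32 in Ctrl and 6.24, 3.87, 4.04 and 8.90 in AngII mice, so the groups overlapped.

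Pik3ca (ENSMUSG00000027665, chromosome 3 from 32451820 to 32522635, plus strand) encodes p110α. Ctrl mice had 2779, 3129, 2820.0 and 3124 normalized counts, and AngII mice 3181, 3324, 5484 and 5953. The groups did not overlap, but AngII 1 and AngII 2 lay just above Ctrl, and the higher group mean came from AngII 3 and AngII 4. The log2 fold change was 0.60 (SE 0.23), then 0.20 (SE 0.20) after the G+C correction and 0.14 without those 2 libraries. The G+C content of its longest transcript, 41.7%, was the lowest of the family. LY mice had 3307 and 2432, and AngII+LY mice 4295, 3021, 2538 and 3253 normalized counts, so that only AngII+LY 1 stood well above the Ctrl range.

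The other catalytic subunits overlapped between AngII and Ctrl mice. Pik3cd (ENSMUSG00000039936, chromosome 4 from 149732411 to 149787028, minus strand), the leukocyte p110δ, had 558 ± 171 normalized counts in Ctrl and 271 ± 181 in AngII mice (SD, n = 4 each). AngII 2, at 531, lay within the Ctrl range of 337 to 739.8. Its log2 fold change was -1.03 (SE 0.50), -0.52 (SE 0.48) after the G+C correction and -0.62 without AngII 3 and AngII 4. It was -1.59 without AngII 2 and -0.79 without AngII 4. The antisense gene Clstn1 overlaps it and held 105005 counts against 5779 of Pik3cd, so that its reads may include some from Clstn1.
Pik3cg (ENSMUSG00000020573, chromosome 12 from 32223472 to 32258659, minus strand), the class IB p110γ, had 317, 268, 123 and 172 normalized counts in Ctrl and 190.2, 229.5, 549 and 443 in AngII mice. Only AngII 3 and AngII 4 exceeded Ctrl. The log2 fold change of 0.68 (SE 0.42) was -0.07 without them. Pik3cb (ENSMUSG00000032462, chromosome 9 from 98918704 to 99022674, minus strand), p110β, was at 749 ± 203 in Ctrl and 816 ± 221 in AngII mice. Its log2 difference of 0.12 (SE 0.27) was -0.10 without AngII 3 and AngII 4.

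**Figure D3:**
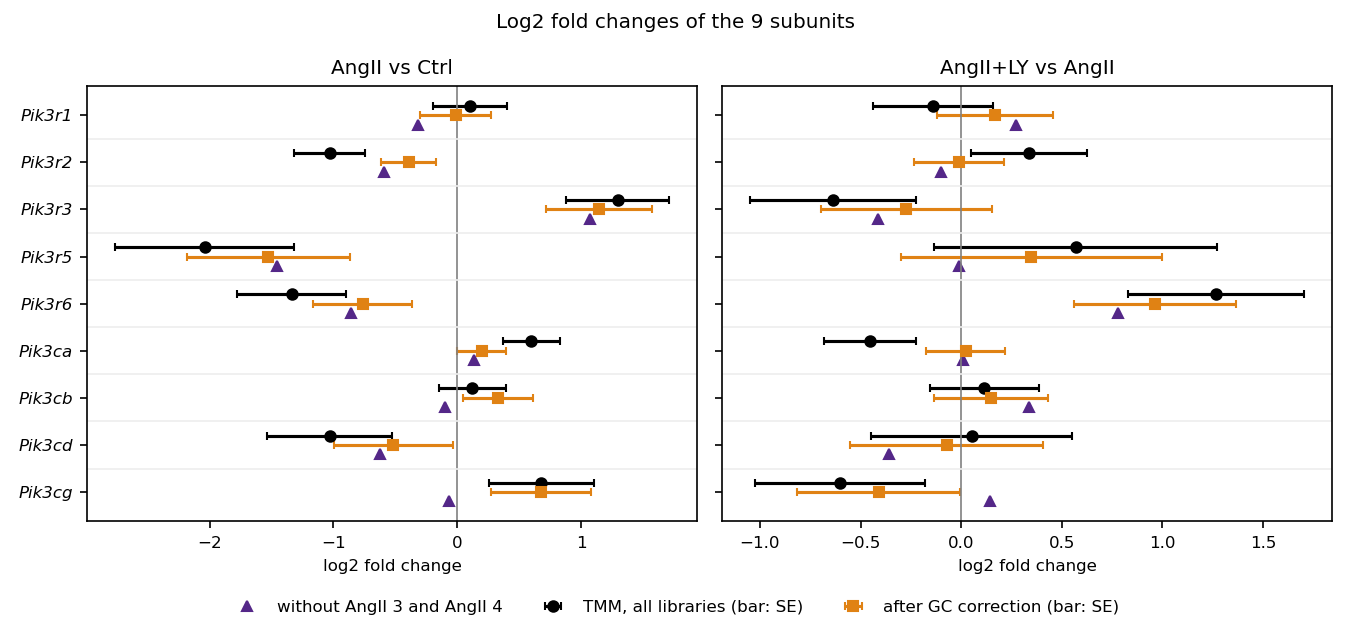
Log2 fold changes of the 9 subunits in AngII vs Ctrl and in AngII+LY vs AngII: all libraries with TMM scaling (black, bar SE), after the G+C correction (orange, bar SE) and without AngII 3 and AngII 4 (purple, no bar). In AngII vs Ctrl, Pik3r3 stayed between 1.07 and 1.29, whereas Pik3ca went from 0.60 to 0.14.

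Signs of the fold changes can be set beside base composition. The 4 subunits with the highest G+C content (Pik3r2 60.9%, Pik3r6 55.8%, Pik3r5 55.1% and Pik3cd 54.7%) were those with negative log2 fold changes in AngII mice, and the 5 from 41.7 to 48.3% had positive ones. Over 19043 genes the log2 fold change and G+C content had a Spearman's rho of -0.538, across genes that share the same libraries. The G+C correction moved the median log2 fold change of all genes from -0.06 to 0.15, so that corrected values are read against 0.15. Against that median, Pik3r3 stayed higher and Pik3r2, Pik3r5, Pik3r6 and Pik3cd stayed lower, while Pik3ca, at 0.20, was near it. Pik3cg (0.67) and Pik3cb (0.33) also lay above that median and Pik3r1 (-0.01) below it. In AngII+LY vs Ctrl the median of all genes went from -0.02 to 0.20 in the same way. Whether base composition, RNA quality or the cell mix of AngII 3 and AngII 4 had a part in these values was not tested.

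**Figure D4:**
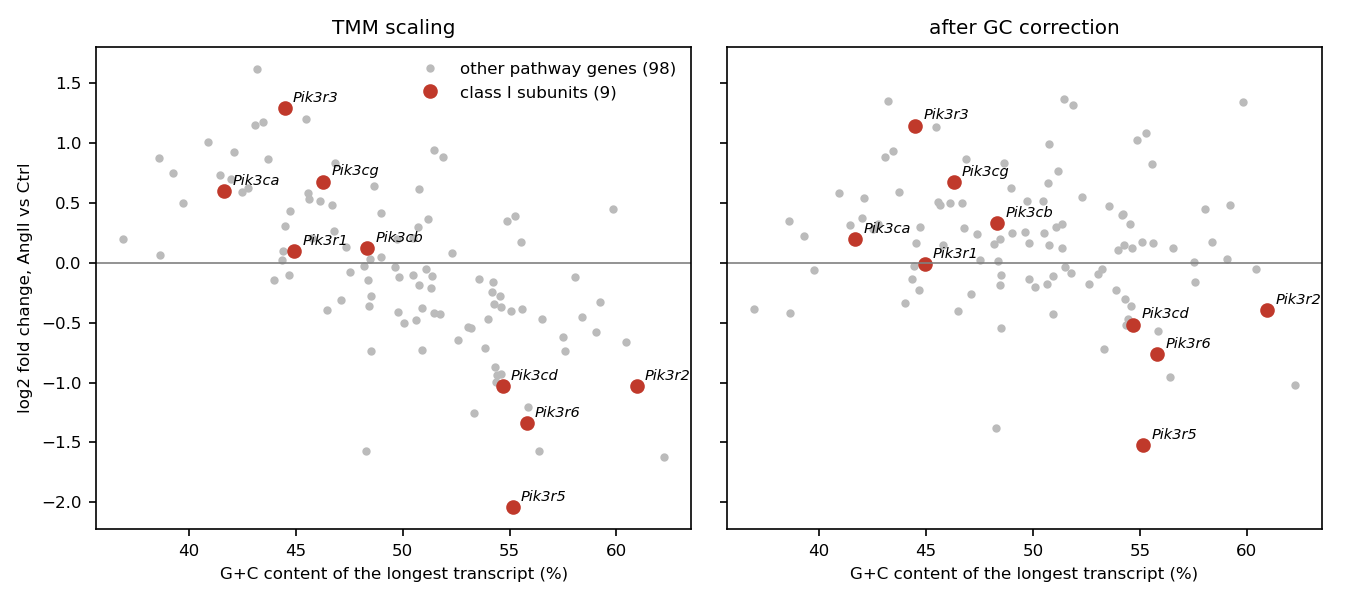
Log2 fold change in AngII vs Ctrl (vertical axis) against the G+C content of the longest transcript in percent (horizontal axis) for the 9 subunits (red) and 98 other pathway genes (grey), before (left) and after (right) the G+C correction. The 4 subunits above 54% lie below 0 in both panels, nearer to it on the right.

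Shares within a library do not depend on its scaling. Of the regulatory sum per kilobase, Pik3r2 made up 43.4 ± 8.17% and Pik3r3 28.7 ± 9.95% in Ctrl mice (SD, n = 4 each). In AngII mice Pik3r2 took 19.7 ± 8.45% and Pik3r3 63.1 ± 9.24%, and in neither did the groups overlap. Per kilobase of exon, Pik3r3 was the highest regulatory subunit in 1 of 4 Ctrl, 0 of 2 LY, 4 of 4 AngII and 2 of 4 AngII+LY mice. Per kilobase of coding sequence it was also the highest in Ctrl 3, AngII+LY 1 and AngII+LY 4. The ratio of Pik3r3 to Pik3r2 per kilobase was 0.354, 0.479, 0.857 and 1.14 in Ctrl and 1.98, 2.32, 3.89 and 8.02 in AngII mice, and the highest values were again those of AngII 3 and AngII 4. Pik3r3 can also be set against Pik3r1, which has nearly the same G+C content. That ratio was 1.52, 1.56, 3.58 and 3.33 in Ctrl and 6.30, 6.42, 3.32 and 6.79 in AngII mice. Here AngII 3 lay within the Ctrl range, and the other AngII mice lay above it. In AngII+LY mice the ratio to Pik3r1 was 1.67, 17.8, 3.35 and 1.87, inside the Ctrl range except in AngII+LY 2.
Of the catalytic subunits, Pik3ca took 73.9 ± 4.86% of the catalytic sum in AngII mice and 64.9 ± 5.75% in Ctrl mice, with overlap, and Pik3cd took 5.25 ± 4.12 and 12.6 ± 3.38%, also with overlap. The ratio of Pik3ca to Pik3cd per kilobase was 4.24, 4.05, 5.14 and 8.90 in Ctrl and 15.9, 6.00, 21.7 and 47.9 in AngII mice, where AngII 2 lay within the Ctrl range and the others above it. The regulatory sum was 1053 ± 57.9 normalized counts per kilobase in Ctrl and 1167 ± 283 in AngII mice. The catalytic sum was 505 ± 45.9 and 663 ± 186. The ratio of the sums was 2.10 ± 0.286 in Ctrl and 1.85 ± 0.571 in AngII mice, and the groups overlapped.

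**Figure D5:**
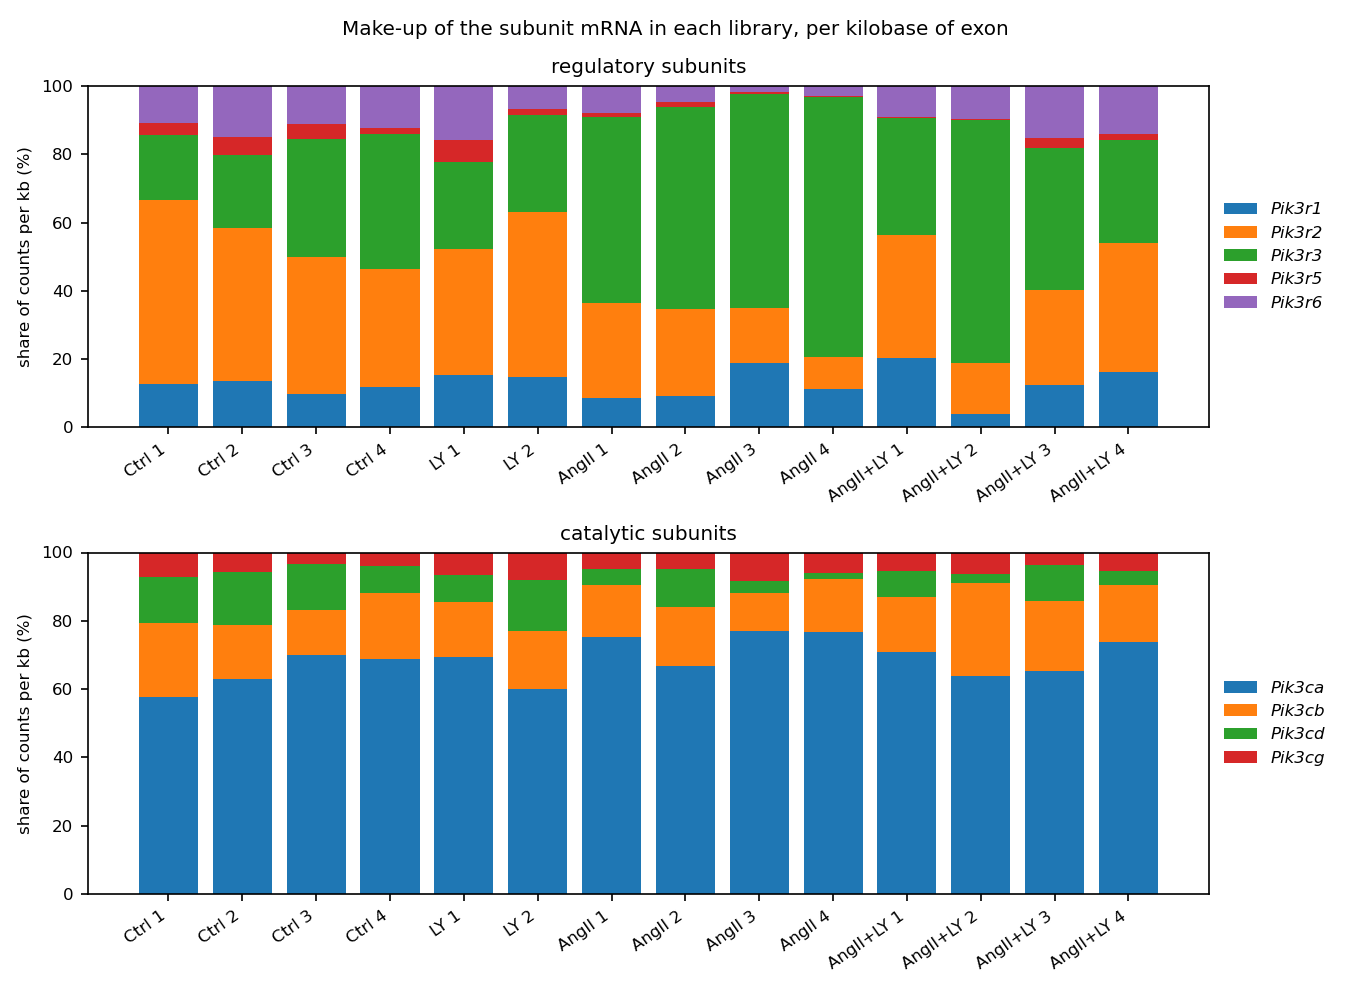
Share of each subunit in the summed counts per kilobase of the 5 regulatory (top) and the 4 catalytic (bottom) genes, in percent, with a stacked bar for each library. Pik3r3 takes 54.6 to 76.1% of the regulatory sum in AngII mice and 19.1 to 39.5% in Ctrl mice.

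The second comparison, AngII+LY vs AngII, addressed HTR2B blockade during the infusion, and it shares the AngII mice with the first. No subunit separated these groups. Pik3r6 was the member with the largest difference, with a mean normalized count of 482 ± 157 under AngII+LY and 199.9 ± 119 under AngII alone (SD, n = 4 each), where only AngII+LY 1 (262) lay within the AngII range of 63.7 to 354. Its log2 fold change was 1.27 (SE 0.44), 0.96 (SE 0.40) after the G+C correction and 0.78 without AngII 3 and AngII 4. The estimate for Pik3r3 was -0.64 (SE 0.41), and it was -1.17 without AngII+LY 2, -0.27 after the G+C correction, -0.33 without AngII 4 and -0.41 without AngII 3 and AngII 4. Pik3ca was at -0.45 (SE 0.23), at 0.02 after the G+C correction and at -0.29 without AngII 4. Pik3r2 was at 0.34 (SE 0.29), at -0.01 after the correction, at 0.17 without AngII 3 and at -0.10 without AngII 3 and AngII 4. For Pik3r5 the value of 0.57 (SE 0.70) became -0.26 without AngII+LY 3. The remaining 4 subunits lay between -0.60 (Pik3cg) and 0.11 (Pik3cb), and the value of Pik3cg was 0.14 without AngII 3 and AngII 4. Pik3cd, at 0.05, was at 0.61 without AngII 2 and at -0.26 without AngII+LY 1. Pik3cb was at 0.30 without AngII 4.
In edgeR 0 of 9 subunits and 0.0% of all genes passed the cut-off. At an unadjusted p under 0.05, 1 subunit (Pik3r6) was higher, beside 10.1% of all genes, and 0 were lower, beside 12.4%. DESeq2 also called Pik3r6 higher, beside 5.3% of genes, and 0 lower, beside 5.47%. Groups did not overlap in 0 subunits, against 5.45% of genes higher and 5.66% lower. After the G+C correction Pik3r6 alone was higher at the unadjusted threshold, beside 9.24% of genes, and 0 subunits were lower, beside 6.47%. Without AngII 3 and AngII 4, 0 subunits passed it, beside 7.41% of genes higher and 7.52% lower, and without AngII 1 edgeR called Pik3r6 (and 844 genes in all).

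AngII+LY mice were also set against Ctrl mice, with which they differ by both agents. Pik3r2 was lower in all 4 AngII+LY mice than in all Ctrl mice. The share of all genes without overlap is not given for this comparison. The log2 fold change of Pik3r2 was -0.69 (SE 0.29), or -0.40 (SE 0.22) after the G+C correction. Pik3r5 was at -1.47 (SE 0.71) and Pik3cd at -0.98 (SE 0.50), with overlap, and without AngII+LY 3 Pik3r5 was at -2.30. Pik3r3 was at 0.66 (SE 0.41), and at 0.12 without AngII+LY 2. Pik3r6 was at -0.07 (SE 0.43). In edgeR 0 subunits and 0.0% of genes passed the cut-off, and 1 subunit (Pik3r2) had an unadjusted p under 0.05, beside 11.0% of genes. Pik3r2 no longer passed it with the G+C correction, with the replicate block (-0.66), or without Ctrl 1, AngII+LY 1 or AngII+LY 2. The corrected test was against 0, while the median log2 fold change of all genes was then 0.20. With single libraries left out the value of Pik3r2 ran from -0.84 to -0.54. DESeq2 called 0, beside 1.79%.
In LY vs Ctrl mice, with 2 LY mice, every subunit overlapped between the groups and all log2 fold changes lay between -0.25 (Pik3r6 and Pik3cd) and 0.46 (Pik3cg, SE 0.51). With 1 of the 2 LY mice left out these limits widened. Pik3r5 was at -0.94 and Pik3r6 at -0.77 without LY 1, and Pik3r5 was at 0.54 and Pik3cd at -0.64 without LY 2. Pik3cg was at 0.68 without Ctrl 1. edgeR called 0 subunits and 0.0% of genes at the cut-off, and 0 subunits and 1.39% of genes at an unadjusted p under 0.05. DESeq2 called 0 subunits and 0.11% of genes. The difference between the LY272015 contrasts with and without AngII was largest for Pik3r6, at 1.51 (SE 0.70) on the log2 scale, and lowest for Pik3cg, at -1.06 (SE 0.66). For this difference 0 subunits and 0.0% of genes passed the cut-off, and 1 subunit (Pik3r6) had an unadjusted p under 0.05, beside 13.3% of genes. DESeq2 called 0 subunits, beside 1.1% of genes. Pik3r6 no longer passed the unadjusted threshold with the G+C correction (1.10), with the replicate block (1.79) or without AngII 3 and AngII 4 (1.03). Nor did it pass when any single library other than LY 1, AngII 1 or AngII+LY 1 was left out. For Pik3cg the difference was -0.31 without AngII 3 and AngII 4.

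The rest of the pathway was described from 9 lists of 98 genes. In edgeR 0 of the 98 were called in AngII vs Ctrl or in AngII+LY vs AngII mice. At an unadjusted p under 0.05, 13 were higher, beside 13.4% of all genes, and 19 lower, beside 11.7%, in AngII mice, with a median log2 fold change of -0.10 against -0.06 over all genes. After the G+C correction 18 were higher and 2 lower, beside 12.8 and 3.25% of genes, with a median of 0.17 against 0.15. In AngII+LY vs AngII mice 8 were higher and 14 lower, beside 10.1 and 12.4% of genes, with a median of -0.04 against -0.02. Without AngII 3 and AngII 4 the counts were 6 higher and 5 lower in the first comparison, beside 4.93 and 3.65% of genes, and 3 higher and 16 lower in the second, beside 7.41 and 7.52%. The counts of single lists that follow are to be read against the same shares.

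Of the 8 phosphatases and PI3K inhibitors, 2 were lower in AngII mice at that threshold. Inppl1, which encodes the lipid phosphatase SHIP2, and Pik3ip1, a membrane protein that inhibits p110, were these genes, at -0.62 (SE 0.28) and -0.54 (SE 0.24). After the correction they were at 0.01 and -0.09, and without AngII 3 and AngII 4 at -0.38 and -0.21. Inppl1 was at -0.39 without Ctrl 2.

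Among the 12 genes of AKT, its activating kinases and its phosphatases, 3 were lower in AngII mice, and 0 after the correction. Akt2, the isoform best known for insulin action, was at -0.87 (SE 0.23), and at -0.31 after the correction. Akt1 was at -0.66 (SE 0.27), at -0.05 after it and at -0.26 without AngII 3 and AngII 4. G or C takes 69.4% of the third codon positions in Akt2 and 77.9% in Akt1.

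Downstream, 2 of 12 genes of the TSC and mTORC1 branch were higher and 2 lower in AngII mice. Rps6kb1, which encodes the S6 kinase, was at 0.73 (SE 0.20) and at 0.32 after the correction, and Rheb, the GTPase that activates mTORC1, at 0.43 (SE 0.17) and 0.30. Eif4ebp1, a translation repressor that mTORC1 inactivates, was higher in all AngII+LY than in all AngII mice, at 0.82 (SE 0.22) and 0.79 after the correction. Without AngII 3 and AngII 4, Rps6kb1 was at 0.46 and Rheb at 0.14 in AngII vs Ctrl. Of the 15 FOXO factors and targets 2 were higher and 3 lower. Klf15 was at -1.57 (SE 0.44) in AngII vs Ctrl, and the cell cycle inhibitor Cdkn1b at 1.15 (SE 0.36), which was 0.75 without AngII 3 and 0.57 without AngII 3 and AngII 4. Sesn3 was at -0.92 (SE 0.39) in AngII+LY vs AngII. Of the 8 other AKT substrates and effectors 1 was higher and 1 lower in AngII mice: the kinase Gsk3b at 0.51 (SE 0.22) and Sgk1, a relative of AKT, at -0.74 (SE 0.18). Bad and Sgk3 were at 0.66 (SE 0.25) and -0.74 (SE 0.40) in AngII+LY vs AngII. Gsk3b was at 0.33 without AngII 4, and Bad at 0.28 without AngII 3 and AngII 4.

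Upstream, 4 of 13 growth factor ligands were higher and 2 lower in AngII mice. Fgf2 had 2277 ± 465 normalized counts in Ctrl, 6998 ± 3003 in AngII and 3050.4 ± 727 in AngII+LY mice, and the AngII mice overlapped neither group. Its log2 fold changes were 1.62 (SE 0.29) in AngII vs Ctrl and -1.20 (SE 0.29) in AngII+LY vs AngII, 1.36 and -0.75 after the correction, and 1.11 and -0.69 without AngII 3 and AngII 4. Hbegf was at 0.94 (SE 0.24) in AngII vs Ctrl, and at 1.37 after the correction, and Igf1 was at -1.07 (SE 0.32) in AngII+LY vs AngII, without overlap. Of 15 receptor tyrosine kinases 1 was higher and 4 lower in AngII mice, with the insulin receptor Insr at 0.84 (SE 0.29) and Csf1r, the macrophage growth factor receptor, at -1.25 (SE 0.40), both with overlap. Insr rested on AngII 3 (4917 normalized counts, against 1869 to 2614 in the other AngII mice), and was at 0.45 without it. Igf1r was at -0.05 (SE 0.25). Pdgfra and Axl were at -0.95 (SE 0.33) and -0.43 (SE 0.22) in AngII+LY vs AngII. Of 10 docking adaptors 1 was higher and 2 lower. Grb2 was at -0.54 (SE 0.17) in AngII vs Ctrl and at 0.51 (SE 0.17) in AngII+LY vs AngII, without overlap in either, and at -0.05 and 0.32 after the correction. Gab1 was at -0.42 (SE 0.18) in AngII vs Ctrl and Frs2 at -0.65 (SE 0.25) in AngII+LY vs AngII, or -0.29 without AngII 3 and AngII 4. The insulin receptor substrates Irs1 and Irs2 were at 0.62 (SE 0.34) and -0.33 (SE 0.26) in AngII vs Ctrl. Each had a Ctrl library apart from the others. Irs1 had 417 normalized counts in Ctrl 3, against 753 to 1014 in the other Ctrl mice. Irs2 had 1066 in Ctrl 1, against 644 to 829.
The class II and III genes, whose products make other phosphoinositides, had 0 of 5 past the threshold in AngII vs Ctrl mice and 2 lower in AngII+LY vs AngII mice. Pik3c2a was at -1.05 (SE 0.38) and at -0.44 after the correction. Pik3c2g is sparse, at 0 in all 4 AngII+LY mice and in 3 of the 4 AngII mice, and no fold is given. In AngII vs Ctrl, Pik3c3, the class III catalytic subunit, was at -0.40 (SE 0.23). Its regulatory partner Pik3r4 was at -0.38 (SE 0.34) and Pik3c2b at -0.16 (SE 0.35). Single libraries stood apart for both. Pik3r4 had 519 normalized counts in AngII 4, against 1304 to 2081 in the other AngII mice. Pik3c2b had 1527 in Ctrl 3, against 765 to 1043 in the other Ctrl mice.

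Markers of other cell types were summed in each library. The 15 leukocyte markers, with Lyz2 the most abundant, took 0.254, 0.159, 0.0988 and 0.063% of the counts in Ctrl and 0.0537, 0.0684, 0.0577 and 0.092% in AngII mice, and 7 of 15 were lower and 0 higher at an unadjusted p under 0.05, beside 11.7% and 13.4% of all genes. Their summed share differed by -0.0758 percentage points (exact 2-sided permutation test, p = 0.0857, adjusted over 16 comparisons to 0.274). Single markers were uneven. Of the AngII mice, AngII 4 had the highest counts of Lyz2 (38502), Fcer1g (8792), Laptm5 (8646), Ptprc (814), Itgam (215) and Cd79a (72.8). It had the lowest of Cd52 (486), Coro1a (678), Cd68 (294), C1qa (1115), C1qb (1949) and Tyrobp (735). The 8 adipocyte markers (most abundant Fabp4) took 0.102 ± 0.0161% in Ctrl and 0.0543 ± 0.0139% in AngII mice (exact permutation p = 0.0286, adjusted 0.114), where 4 against 4 cannot go lower than 0.0286. In AngII+LY vs AngII mice the 10 cardiomyocyte markers (most abundant Tnnt2) took 2.91 ± 0.989 and 1.15 ± 0.412% of the counts, and the interstitial and fibroblast markers 0.785 ± 0.183 and 1.49 ± 0.302% (each exact permutation p = 0.0286, adjusted 0.114). Adipocyte markers took 0.0934 ± 0.0107% in AngII+LY mice (exact permutation p = 0.0286 against AngII mice, adjusted 0.114). These percents are of all counts, with mitochondrial counts included. As summed TMM-normalized counts, cardiomyocyte markers overlapped, with AngII 3 (1008810) above AngII+LY 2 (999404). Adipocyte markers of AngII 3 (47930) also lay above those of Ctrl 4 (44980) and AngII+LY 2 (45766). Interstitial and fibroblast markers still did not overlap between AngII+LY and AngII mice. All markers of these lists were detected in every group. The part of the cell mix in the values of the subunits was not tested.
The 6 smooth muscle markers (most abundant Acta2) were uneven among Ctrl mice, from 0.0157 to 0.888%, and the exact permutation test against AngII mice gave p = 0.4. The endothelial (most abundant Pecam1), erythroid (Hbb-bs) and melanocyte (Dct) markers had exact permutation p of 0.629, 0.886 and 0.514 in AngII vs Ctrl.

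Over the 14 libraries, genes with the most similar log2 levels were looked for among the 13610 whose mean count reached 100, as a description. They share libraries, depth and base composition with the members. Pik3r3 was closest to Adgrl4, Pogk and Myct1, with Pearson's r of 0.958, 0.945 and 0.931. Pik3cg was closest to Adgre1, at 0.896, then to Zbtb38 and Scarb2. For Pik3cd they were Acap1 (0.868), Hmgn2 and Ciita. Pik3r2 was closest to Pqbp1 (0.933), Gnptg and Gkn3, and Pik3r1 to Il15 (0.864), Zfp330 and Ror2. Pik3r5 was closest to Rarres2 (0.911), Rbm14 and Crtc1, and Pik3r6 to Dnajc11 (0.913), Ubb and Haus7. For Pik3ca they were Rpp30 (0.929), Ap4b1 and Rpl17-ps5, a pseudogene, and for Pik3cb Dnm3 (0.826), Ppm1h and Egr2. The lowest of these leading values belonged to Pik3cb, a subunit that overlapped in every comparison.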

How the data were processed

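RNA from aortic valve leaflets was sequenced from 14 mice, 1 library each. Per the labels and the study's methods, the authors checked reads with FastQC 0.12.1, trimmed them, used HISAT2 for alignment to GRCm39 and featureCounts for gene counts. The deposited table is described as normalized but holds whole-number counts, which were used as raw counts. The authors' own DESeq2 results were not used. Library totals ranged from 20990655 to 73128220. Groups followed the sample titles.

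Genes whose mean count reached 10 (19145 of 56941) were fitted in 1 model over the 4 groups by edgeR 4.0.16 (R 4.3.3, TMM scaling, quasi-likelihood test, common dispersion 0.353). Genes were called at an adjusted p (Benjamini-Hochberg) below 0.05 if the log2 fold change exceeded 0.5 in size. For the G+C correction, each log2 count was first taken as the deviation from its gene's mean over all libraries. A loess curve (span 0.3) of these deviations on transcript G+C content in each library then entered the edgeR fit as an offset. Alternatives were DESeq2 1.42.0, limma 3.58.1 on log2 values (pseudocount 0.5), other scalings, filters, lengths and a replicate block, and each library left out in turn. Leaving out both AngII 3 and AngII 4, with and without the G+C correction, was added after seeing the data. The fits were also run on simulated data with a dispersion below the fitted one, which cannot show how they behave on these libraries. Annotation, lengths and sequences came from GENCODE vM39, in which 618 genes (0.0361% of counts) had no match. Figures and tables used Python 3.11.15 and pandas 2.3.3. SDs are over the mice of a group, and SEs of fold changes come from the edgeR fit.

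The members and gene lists were chosen with earlier results of these data known. The genes named are all members, the 2 of each pathway list with the smallest unadjusted p in each of the 2 AngII comparisons, a fixed set of core genes (among them Pik3ip1, Akt1, Akt2, the insulin receptor genes and the class II and III genes), the 3 genes most like each member and the most abundant marker of each list. Some genes that this rule names are not reported here.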

Additional observations from a re-analysis of the deposited data

Results flagged for a closer look

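Among 129 groups of 4 libraries examined by Dixon's test, 4 held a library far from the other 3. Chance alone gives about 1 in 20. These were Pik3c2g, a class II kinase, with 31.7 normalized counts in Ctrl 2 and 62.7 in AngII 2, Csf1r with 2863 in AngII+LY 2, and the adaptor Grb2 with 6106 in Ctrl 2. No class I subunit was among them.

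For Pik3cg the LY272015 difference with AngII minus that without it was -1.06 on the log2 scale. Both LY mice lay above the Ctrl mean and all 4 AngII+LY mice below the AngII mean. The difference is listed for these directions. In edgeR it passed neither the adjusted nor the unadjusted threshold, and without AngII 3 and AngII 4 it was -0.31.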

How the results depend on the processing

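In AngII vs Ctrl, 0 genes called by edgeR became 2648 with DESeq2, 123 with no filter on low counts and 2 with limma. In AngII+LY vs AngII the counts were 2062, 1 and 2. In AngII+LY vs Ctrl they were 343 with DESeq2, 13 with no filter, 1 with the replicate block and the G+C correction, 61 without both AngII 3 and AngII 4 and 273 when these were left out after the G+C correction. DESeq2 called 21 genes in LY vs Ctrl and 210 for the LY272015 effect with AngII minus without AngII, where limma called 1. Genes at an unadjusted p under 0.05 in AngII vs Ctrl numbered 4815, and 3078 with the G+C correction, 2560 with the block added, 1648 without both libraries and 971 with correction and without both. In AngII+LY vs AngII 4315 became 2510 with the block and the correction, 2871 without both libraries and 2856 with the correction as well. AngII+LY vs Ctrl had 2112, and 3525 with the correction and without both libraries. LY vs Ctrl had 266, and 428 with DESeq2, 633 with no filter and 679 when fitted on its 2 groups. The difference between LY272015 effects had 2545, and 1638 with the correction or 1413 with the block as well. The causes were not tested.

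Leaving out each library in turn gave 0 to 1725 called genes in AngII vs Ctrl (1725 without AngII 1, 805 without Ctrl 4 and 382 without AngII 2), 0 to 844 in AngII+LY vs AngII, 0 to 3 in AngII+LY vs Ctrl, and 0 to 0 in LY vs Ctrl and for the difference between LY272015 effects. Genes at an unadjusted p under 0.05 ranged from 3181 to 5667, 3194 to 4869, 1443 to 2561, 111 to 379 and 1289 to 3178 in the same order.

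Of 1116 fold changes of the subunits under the alternatives, 1080 lay within the replicate spread of the reported value, 36 moved further and 97 had another sign. The moves were unevenly spread over the alternatives. With the G+C correction and without AngII 3 and AngII 4, 16 of 45 moved and 20 had another sign. Without these 2 libraries alone 7 of 45 moved, and with the G+C correction alone 5 of 45. Of 72 shares under other gene lengths 13 moved. The replicate numbers do not pair the mice: over 18 pairs of libraries with the same number, the correlation of deviations from group means ran from -0.128 to 0.0897. With the replicate block 0 subunit fold changes moved and 3 had another sign. Pik3r5, with 10 raw counts in its lowest library, is limited by depth.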
